A study of Mus musculus with 12 samples.

Results

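The genes described here encode the proteins of the mitochondrial ribosome. They were taken by name, as all rows of the deposited expression table whose symbol starts with Mrpl or Mrps followed by a digit, which gave 76 of 23406 genes, 47 named for the large subunit (Mrpl) and 29 for the small subunit (Mrps). RNA was sequenced from mouse mammospheres, the floating spheres that cells of mammary tissue form in culture, at their second passage. Donor mice were C57BL/6J, either wild type (WT) or p66Shc knock-out (KO), and 2 or 12 months old, with 3 libraries in each of the 4 groups and no other treatment named in the labels. The knock-out animals lack the longest of the proteins made from Shc1, an adaptor known from work on oxidative stress and ageing, and the comparison of ages and genotypes asks how mammary stem cells change with age with and without it. Nothing in the labels says whether each library came from an animal and a culture of its own, so p-values measure the spread between these libraries, and the deletion is described for the whole animal with no cell type named.

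Mitochondrial ribosomes make the membrane proteins encoded by mitochondrial DNA, which are parts of the respiratory chain and of ATP synthase. The ribosomal RNAs come from mitochondrial DNA, while every ribosomal protein is encoded in the nucleus, made in the cytosol and imported. Many of these proteins have bacterial counterparts and others occur only in mitochondria. The small subunit reads the messenger RNA, and the large subunit joins the amino acids and feeds the new chain to the inner membrane.

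The promoters of 6 members are shown because their genes stand for the patterns met below. Mrps11 and Mrps12 were among the largest falls with age in KO, Mrpl41 rose with age in WT and fell with age in KO, Mrpl17 fell in both, and Mrpl12 and Mrps30 were called in neither. The sequences are from RefSeq on GRCm38.p6, 5′ to 3′ on the strand of the gene, and end at the base before its annotated start. Mrps11 is shown for chr7:78783090-78783130 on the plus strand and Mrps12 for chr7:28741822-28741956 on the minus strand, in each case the whole stretch between the gene and a neighbour that runs the other way. For Mrps11 that neighbour is another member, Mrpl46, 41 bases away, and for Mrps12 it is Sars2, which encodes the mitochondrial seryl-tRNA synthetase, 135 bases away. For the others the 250 bases before the start are given, from chr2:24975099-24975348 on the minus strand for Mrpl41, chr7:105811088-105811337 on the minus strand for Mrpl17, chr11:120484387-120484636 on the plus strand for Mrpl12 and chr13:118387253-118387502 on the minus strand for Mrps30. Capitals mark matches to the core motif of NRF1, CGCNTGCG, a factor known to bind promoters of nuclear genes for mitochondrial proteins. They begin 48 and 10 bases before the start of Mrpl17 and 80 bases before that of Mrpl12.
Mrps11: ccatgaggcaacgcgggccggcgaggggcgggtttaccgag
Mrps12: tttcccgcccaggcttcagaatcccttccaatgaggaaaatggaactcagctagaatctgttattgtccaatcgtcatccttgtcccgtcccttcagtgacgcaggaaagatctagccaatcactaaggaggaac
Mrpl41: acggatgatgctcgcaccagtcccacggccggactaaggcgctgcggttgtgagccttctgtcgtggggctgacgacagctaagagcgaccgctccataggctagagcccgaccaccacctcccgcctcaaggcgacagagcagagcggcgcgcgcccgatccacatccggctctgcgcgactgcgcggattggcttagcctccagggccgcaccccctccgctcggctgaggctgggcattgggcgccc
Mrpl17: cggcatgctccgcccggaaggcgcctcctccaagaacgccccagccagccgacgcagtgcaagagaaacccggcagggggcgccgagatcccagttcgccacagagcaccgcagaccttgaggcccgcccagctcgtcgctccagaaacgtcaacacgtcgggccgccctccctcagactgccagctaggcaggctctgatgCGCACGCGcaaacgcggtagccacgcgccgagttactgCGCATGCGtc
Mrpl12: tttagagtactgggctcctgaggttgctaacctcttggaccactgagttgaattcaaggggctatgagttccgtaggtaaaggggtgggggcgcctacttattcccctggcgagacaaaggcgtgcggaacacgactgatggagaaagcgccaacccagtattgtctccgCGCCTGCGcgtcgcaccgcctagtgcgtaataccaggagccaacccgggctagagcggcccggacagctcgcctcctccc
Mrps30: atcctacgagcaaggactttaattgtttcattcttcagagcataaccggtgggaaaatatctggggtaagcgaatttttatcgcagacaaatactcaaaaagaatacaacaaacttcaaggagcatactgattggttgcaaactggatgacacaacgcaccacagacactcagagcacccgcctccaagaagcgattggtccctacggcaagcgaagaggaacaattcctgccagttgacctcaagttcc

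The libraries held 31845169 to 109079737 reads in genes, and levels are counts relative to library size (CPM) on 1 scale computed over the 12 libraries, which orders libraries for a gene but does not compare genes of different length. Of the 76 members, 74 had a mean of at least 0.5 CPM and were tested, 46 large and 28 small. Changes are log2 fold changes with their standard error (SE), and a gene counts as changed at an adjusted p under 0.05 in limma over 13980 genes. Shc1 stood in WT at 288 ± 24.7 CPM (SD, n = 3) at 2 months and 214 ± 8.56 at 12 months, and in KO at 216 ± 1.26 and 176 ± 6.93. It was lower in KO by a log2 fold change of -0.41 (adjusted p = 0.000643) at 2 months and -0.29 (adjusted p = 0.000952) at 12 months, with all its isoforms in 1 value, so it bears on the labels only in part.

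Marker genes of several cell types differed between the groups. The summed level of 10 luminal epithelial markers was 4114 to 4262 CPM in 12-month WT and between 345.8 and 587 CPM in the 9 other libraries. For 10 skeletal muscle markers the sum lay at 973 to 1154 CPM in young (2-month) and 200 to 224 in aged (12-month) WT, and at 297 to 344 in young and 875 to 1655 in aged KO, with the mean of Myod1 under 1 CPM in every group. The 8 fibroblast markers summed to 6754 to 7159 CPM in 12-month WT and to between 8832 and 11094 in the others, and 7 basal markers to 384.9 to 405 CPM in 12-month WT and 164 to 224 elsewhere, with the group means of Krt5 and Trp63 under 1 CPM at 2 months. In 12-month KO, 8 leukocyte markers summed to 289 to 486 CPM against 822 to 1241 elsewhere, with the means of Cd3e and Cd79a under 1 CPM in all groups, and 5 endothelial markers to 252 to 270 against 64.5 to 116. All 4 adipocyte markers had group means under 1 CPM. The part of cell composition in the results below was not tested.

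With age in KO most mitochondrial ribosomal protein genes fell. Of the 74 tested, 63 were lower at 12 than at 2 months and none was higher, where 34.5% of all genes tested were lower and 32.7% higher. The median log2 fold change of the members was -0.36, against -0.03 for all genes tested, and 69 of the 74 had a value under 0. In a bulk sample, fewer cells of a type and less RNA per cell cannot be told apart. The fall covered both subunits, with 39 of 46 large and 24 of 28 small members lower and medians of -0.32 and -0.40. The groups did not overlap for 64 members with the lower values at 12 months, against 38.2% of all genes tested. In the same comparison all 5 endothelial markers and 7 of 9 tested muscle markers rose and 5 of 6 tested leukocyte markers fell, and their part in the result was not tested.

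**Figure D1:**
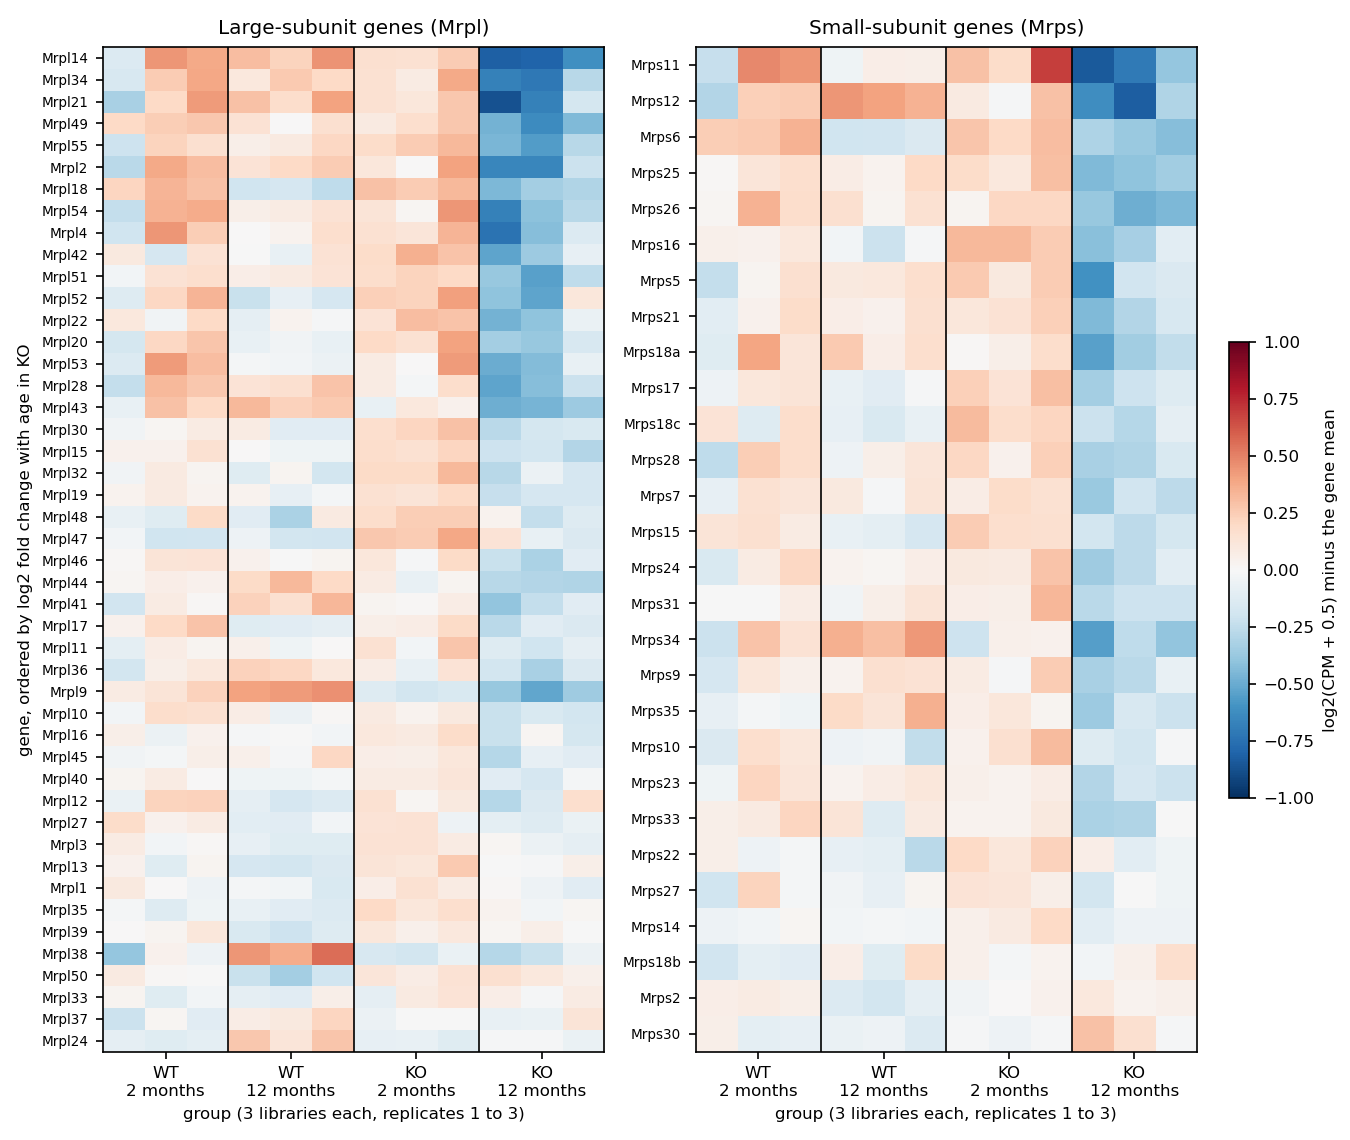
Level of each tested member in each of the 12 libraries, as log2(CPM + 0.5) minus the mean of the gene over the libraries (colour), large-subunit genes on the left and small-subunit genes on the right, ordered by the change with age in KO. The 3 columns of 12-month KO are blue for most genes, as 35 large-subunit and 23 small-subunit members had their lowest group mean there, and Mrpl33, Mrps2 and Mrps30 near the bottom are not. The share of all genes tested with their lowest group mean in 12-month KO was not computed.

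Mrps11, counterpart of a bacterial small-subunit protein at the place where messenger RNA leaves, had the largest fall. Its level was 24.9, 23 and 32.9 CPM in the libraries of 2-month KO and 11.1, 12.2 and 15.4 in those of 12-month KO. The 12-month libraries lay below all 9 others, including 2-month WT at 17.1, 28.3 and 27.6 and 12-month WT at 19.6, 21.2 and 21.1. The log2 fold change with age in KO was -1.03 ± 0.18 (adjusted p = 0.000204). Mrpl14, a large-subunit protein at the face that meets the small subunit, went from 20.6, 20.5 and 22.0 CPM to 10.2, 10.4 and 11.9. Those values did not overlap, and the log2 fold change was -0.93 ± 0.13 (adjusted p = 2.45e-05). In WT it was 16.7, 25.1 and 24.0 CPM at 2 months and 22.8, 21.5 and 25.3 at 12 months, groups that overlapped.

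Mrps12, the counterpart of the bacterial protein whose mutations give streptomycin resistance and a part of the decoding centre, measured 19.0, 17.7 and 22.0 CPM in 2-month KO and 11.4, 9.85 and 14.4 in 12-month KO. The groups were apart, with a log2 fold change of -0.71 ± 0.15 (adjusted p = 0.00105). The large-subunit genes Mrpl34 and Mrpl21, both with bacterial counterparts, fell by -0.76 ± 0.14 and -0.75 ± 0.19 on the log2 scale (adjusted p = 0.000347 and 0.00284). Mrpl34 was 22.5, 21.4 and 26.3 CPM at 2 months and 12.5, 12.1 and 16.6 at 12 months, and Mrpl21 was 9.27, 8.99 and 10.1 and then 4.30, 5.01 and 7.27. Mrps5, known from work on lifespan in worms and in mouse strains, was 17.4, 15.5 and 17.3 CPM and then 9.35, 12.6 and 13.0, a log2 fold change of -0.52 ± 0.12 (adjusted p = 0.00221).

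The 11 members not called with age in KO included Mrpl12, Mrpl33, Mrpl38, Mrpl50, Mrps2 and Mrps30. Mrps30, which despite its symbol sits in the large subunit, had the highest value of any member, 26.0, 25.3 and 26.0 CPM at 2 months and 32.3, 29.4 and 26.0 at 12 months, a log2 fold change of 0.17 ± 0.08 that missed the threshold (adjusted p = 0.0609). Mrpl12, a protein of the flexible stalk that recruits translation factors, was 20.3, 18.5 and 19.5 CPM and then 14.9, 16.4 and 20.5, groups that overlapped, with a change of -0.18 ± 0.11 (adjusted p = 0.167). Among the 74 tested members Mrpl33 had the steadiest group means, the highest being 1.07 times the lowest, and Mrpl14 the most variable, at 2.15 times.

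**Figure D2:**
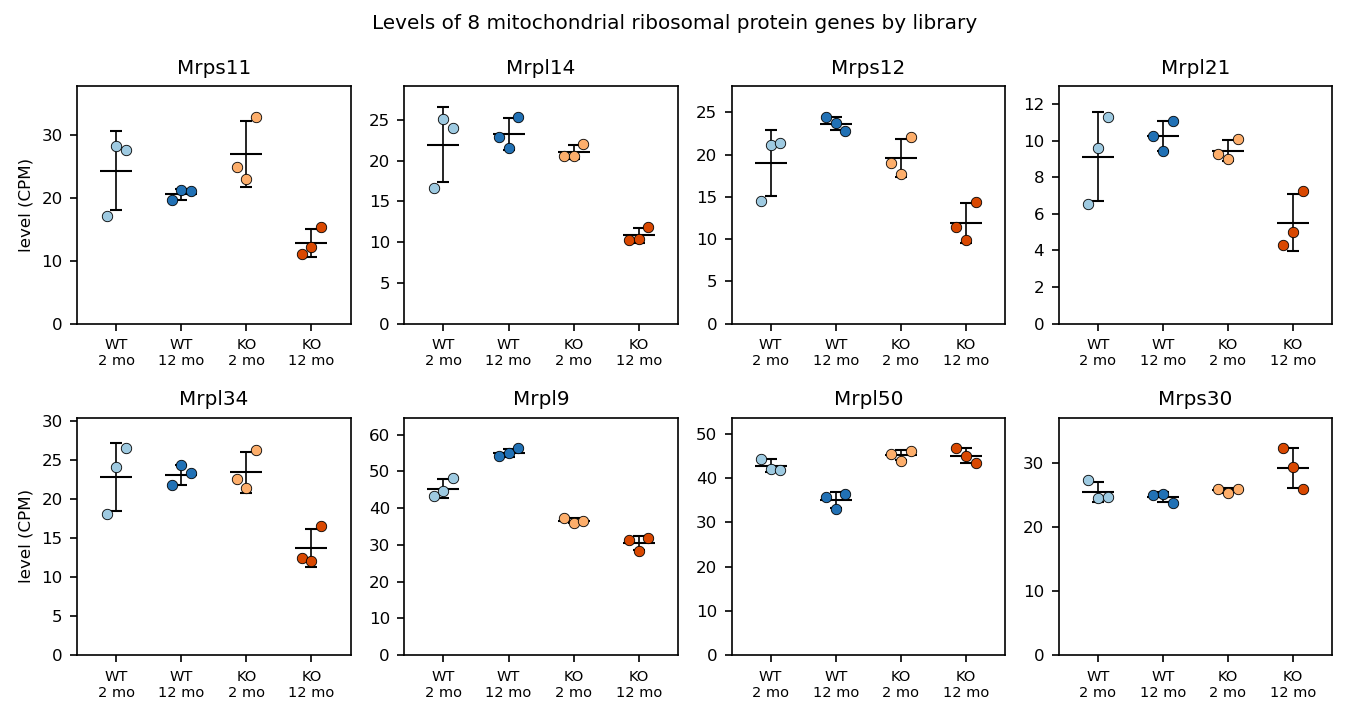
Levels of 8 members in CPM (vertical axes from 0) for each library of the 4 groups; points are libraries, horizontal marks the mean and bars the SD (n = 3). The 12-month KO points of Mrps11, Mrpl14, Mrps12, Mrpl21, Mrpl34 and Mrpl9 lie below those of 2-month KO, and those of Mrpl50 do not.

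Summed over the 47 large-subunit genes, the level was 1700, 1688 and 1816 CPM in 2-month KO and 1352, 1360 and 1455 in 12-month KO. The 29 small-subunit genes summed to 826, 815 and 880 and then to 618, 643 and 672 CPM. In WT the large sum was 1550, 1699 and 1732 CPM at 2 months and 1606, 1576 and 1637 at 12 months, and the small sum 731, 829 and 824 and then 772, 753 and 790. The 12-month KO libraries lay below the 9 others in both sums, while 2-month WT overlapped both 12-month WT and 2-month KO. The ratio of the large to the small sum was 2.15 ± 0.0373 in 12-month KO and 2.06 ± 0.00733 in 2-month KO (SD, n = 3), and 2.09 ± 0.0379 and 2.08 ± 0.0109 in WT at 2 and 12 months. The symbols do not quite follow the structure, since Mrps18a and Mrps30 belong to the large subunit and Mrps36 is a subunit of the oxoglutarate dehydrogenase complex. Sorted by place instead, 40 of 48 large and 23 of 26 small members fell with age in KO.

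**Figure D3:**
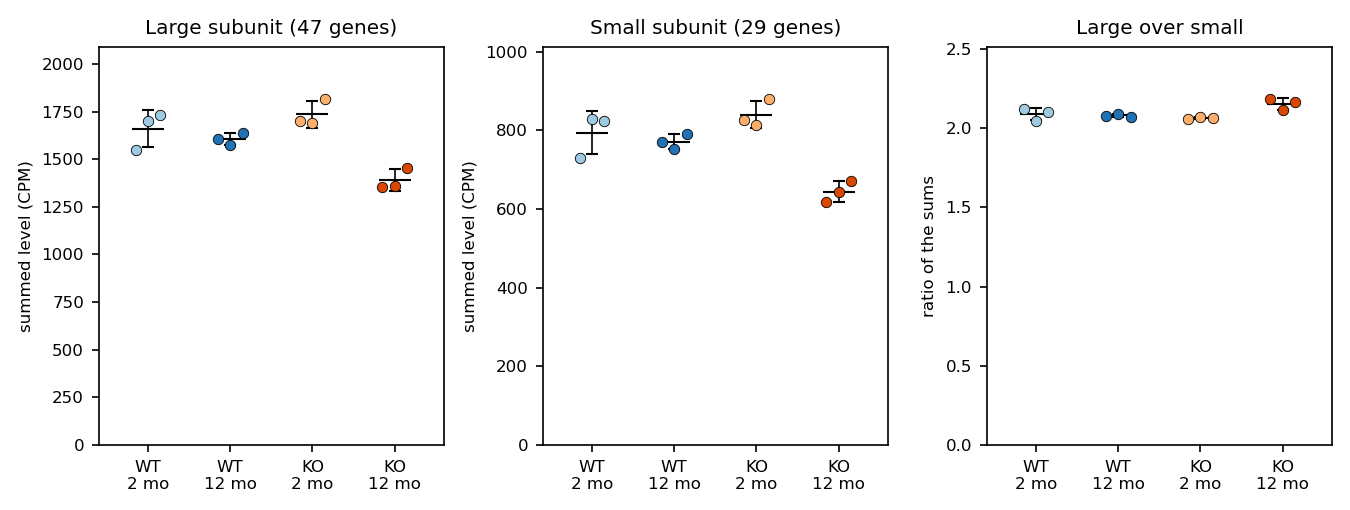
Summed level in CPM of the 47 Mrpl genes (left) and the 29 Mrps genes (middle), and the ratio of these sums (right), by library; points are libraries, horizontal marks the mean and bars the SD (n = 3), and all axes start at 0. The 12-month KO libraries have the lowest sums, up to 1455 CPM for the large and 672 CPM for the small subunit.

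With age in WT few members changed and the directions were mixed. Of the 74, 7 were higher and 9 lower, against 25.7% and 29.7% of all genes tested, and the median log2 fold change was -0.04. On the authors' own scale, in which the columns of the 2 ages do not share 1 normalisation, the same comparison gave 5 higher and 19 lower members. Without replicate 2 of 12-month WT, 5 members were lower. Among the large-subunit genes 6 rose and 6 fell, and among the small-subunit genes 1 rose and 3 fell. In the same comparison all 10 luminal and all 7 basal markers rose and all 9 tested muscle markers fell, and their part in it was not tested.

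Mrpl38, a protein found only in mitochondrial ribosomes, rose the most, from 15.8, 21.4 and 20.1 CPM at 2 months to 28.5, 27.0 and 30.8 at 12 months. The groups were apart, and the log2 fold change was 0.59 ± 0.10 (adjusted p = 0.000277). Mrpl24, at the exit of the tunnel through which the new chain leaves, rose by 0.32 ± 0.06 (adjusted p = 0.0003), from 31.8, 31.2 and 31.7 CPM to 40.9, 36.8 and 41.2. Neither gene was called with age in KO, where Mrpl38 changed by -0.05 ± 0.10 and Mrpl24 by 0.06 ± 0.06. The span of Mrpl24 shares 833 bases with that of Rrnad1, which had up to 1067 reads in a library against 3261 for Mrpl24. Its counts are uncertain to that extent. Mrpl18, with a bacterial counterpart that binds ribosomal RNA, was the member that fell most in WT, from 56.8, 62.0 and 59.8 CPM to 42.4, 43.3 and 40.8, a log2 fold change of -0.49 ± 0.06 (adjusted p = 6.74e-06). It fell in KO as well, from 59.8, 58.1 and 61.1 CPM to 35.5, 38.4 and 39.5, by -0.65 ± 0.06 (adjusted p = 3.7e-07).

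Mrps6, a small-subunit protein with a bacterial counterpart, had a change of -0.47 ± 0.06 with age in WT (adjusted p = 1.03e-05) and one of -0.63 ± 0.06 with age in KO (adjusted p = 4.46e-07), and its 2-month and 12-month libraries did not overlap in either genotype. Its span holds that of Slc5a3 on the same strand, which had up to 21429 reads in a library against 2801 for Mrps6, so its counts are uncertain. Mrpl50, Mrpl17 and Mrps15 also fell with age in WT, by -0.28, -0.28 and -0.24 (adjusted p = 0.000824, 0.00293 and 0.00455). Mrpl17, at the tunnel exit, fell by the same -0.28 in KO, and Mrps15 by -0.40. Mrpl50 was at 45.4, 44.0 and 46.2 CPM in 2-month KO and 46.7, 45.1 and 43.4 in 12-month KO, groups that overlapped.

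Taking the ages together, 53 members fell in KO without a call in WT, 6 fell in both, and 5 were called in neither. In WT 3 rose and 3 fell without a call in KO. No share of all genes tested is given for any count in this paragraph. A call in KO alone is not a test of a genotype difference, which is the interaction given below. Among members that fell in KO, it was negative for 35 that were also lower in KO at 12 months. It was negative for 6 not called there, and not called for the rest. All of these contrasts use the same 12-month KO libraries, so these counts are not independent of the fall in KO. Another 4 rose in WT and fell in KO, namely Mrpl9, Mrpl41, Mrpl44 and Mrps35. Mrpl9, whose bacterial counterpart reaches out from the large subunit, was 43.2, 44.7 and 48.1 CPM at 2 months and 54.1, 55.0 and 56.2 at 12 months for WT, and 37.2, 35.8 and 36.6 and then 31.2, 28.3 and 31.9 CPM for KO. None of the 4 groups overlapped another. Its log2 fold change was 0.28 ± 0.06 in WT (adjusted p = 0.00144) and -0.26 ± 0.06 in KO (adjusted p = 0.00195).

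Mrpl44, which has the fold of a double-strand RNA nuclease and is mutated in human cardiomyopathy, was 18.1, 18.7 and 18.4 CPM at 2 months and 20.4, 22.4 and 20.5 at 12 months for WT, and 18.9, 17.0 and 18.2 and then 14.7, 14.5 and 14.4 CPM for KO. The aged KO libraries were the lowest and the aged WT libraries the highest. The changes with age were 0.19 ± 0.07 in WT (adjusted p = 0.024) and -0.30 ± 0.07 in KO (adjusted p = 0.00115). Mrpl41 and Mrps35, proteins without bacterial counterparts, rose by 0.28 ± 0.09 and 0.28 ± 0.08 in WT (adjusted p = 0.0141 and 0.00792) and fell by -0.29 ± 0.09 and -0.32 ± 0.08 in KO (adjusted p = 0.00902 and 0.00251). Without replicate 3 of 12-month WT the rise of Mrpl41 no longer passed the threshold (adjusted p = 0.061). The span of Mrpl41 overlaps that of Wdr85, and since the strand setting of the counting is not given in the sources used here, reads of such pairs cannot be told apart. The same limit holds for Mrpl24. The span listed for BC002163 (up to 3319 reads, against 5093 for Mrpl39) covers all of Mrpl39 and all of the distant Mrps6. That overlap may therefore not mark shared reads.

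**Figure D4:**
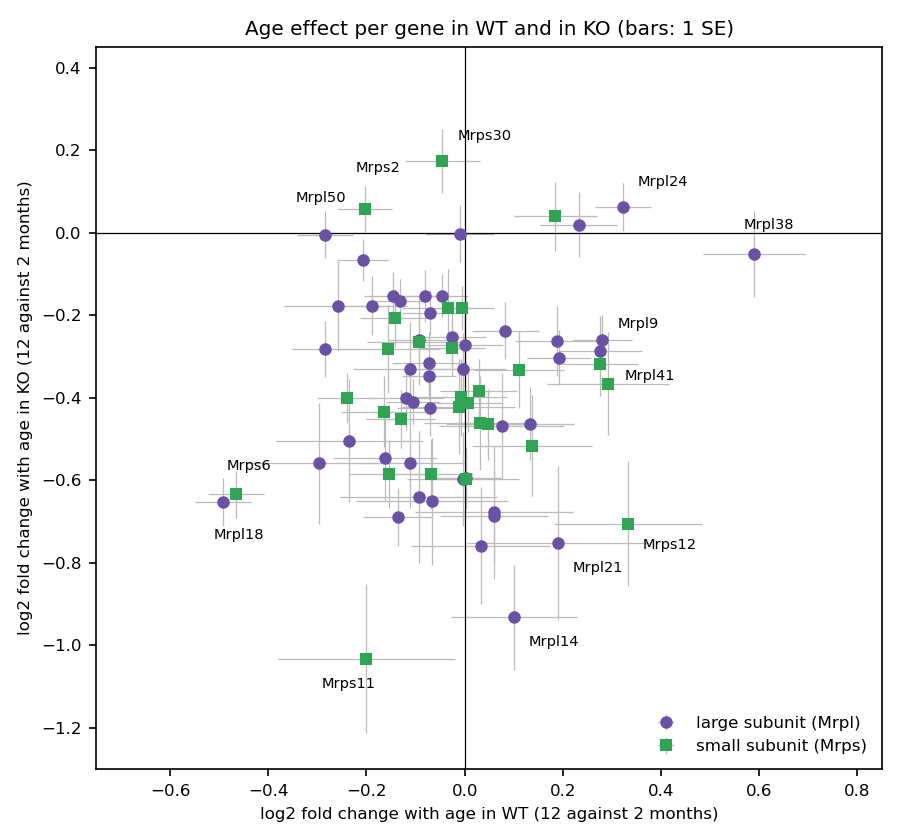
Log2 fold change from 2 to 12 months of the 74 tested members in WT (horizontal axis) and in KO (vertical axis), with bars of 1 SE; circles are large-subunit and squares small-subunit genes. The points spread to both sides of 0 in WT, and 69 of the 74 lie below 0 in KO.

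The age by genotype interaction, taken as the change with age in KO less the change in WT, was negative for 43 members and positive for 2, where 30.4% and 28% of all genes tested were called in these directions. The median was -0.32, against -0.05 for all genes tested. With trends on transcript length and GC content removed from each library, a step added after the data were seen, 36 were negative and 3 positive, against 32.2% and 31%, with a median of -0.21. By subunit 26 of 46 large and 17 of 28 small members were negative. The values were -1.04 ± 0.21 for Mrps12 (adjusted p = 0.00102), -1.03 ± 0.18 for Mrpl14 (adjusted p = 0.000288), -0.94 ± 0.26 for Mrpl21 (adjusted p = 0.00766), -0.83 ± 0.25 for Mrps11 (adjusted p = 0.013) and -0.79 ± 0.20 for Mrpl34 (adjusted p = 0.00412). In each of these 5 genes replicate 1 of 2-month WT lay below the other 2 libraries of its group, for Mrps11 at 17.1 against 28.3 and 27.6 CPM. Across genes, deviations from the mean in that library correlated with GC content at -0.373, against 0.359 and 0.164 in the other 2. Without that library the value for Mrps11 was -0.63 (adjusted p = 0.0125) and the count of negative members again 43. Mrpl50 and Mrps2, the counterpart of a bacterial protein on the back of the small subunit, were the positive ones, at 0.28 ± 0.08 (adjusted p = 0.00958) and 0.26 ± 0.08 (adjusted p = 0.0116). On the authors' own scale 4 were positive and 33 negative.

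At 2 months the genotypes differed for 3 members, 2 higher and 1 lower in KO, against 3.05% and 7.38% of all genes tested. Mrpl47, at the tunnel exit, was 16.4, 14.5 and 14.6 CPM in WT and 20.3, 20.1 and 22.0 in KO, which did not overlap, a log2 fold change of 0.44 ± 0.09 (adjusted p = 0.00476). At 12 months it was 16.2, 14.7 and 14.6 CPM in WT and 18.5, 15.9 and 15.1 in KO, and was not called. Mrpl35, with a bacterial counterpart, was 42.1, 39.0 and 41.4 CPM in WT and 49.0, 46.2 and 47.8 in KO, a change of 0.22 ± 0.05 (adjusted p = 0.0154). It did not pass on the authors' own scale, where it was 0.13 (adjusted p = 0.104), nor in 3 fits that left out 1 library, where the adjusted p was 0.0561 to 0.0807. Mrpl9 was lower in KO by -0.31 ± 0.06 (adjusted p = 0.00524). Mrpl9 and Mrpl47 both lie on chromosome 3, the chromosome of Shc1, which also holds Mrpl24, Mrps21 and Mrps28, 5 members in all. The part of this position in the genotype differences of these members at either age was not tested.

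At 12 months 42 members were lower in KO and 5 higher, against 37.4% and 32.5% of all genes tested, with medians of -0.24 for the members and -0.05 for all genes tested. The count was 25 lower and 3 higher among 46 large-subunit genes and 17 and 2 among 28 small-subunit genes. Mrpl14 had the largest difference at -1.07 ± 0.13 (adjusted p = 6.05e-06), followed by Mrps12 at -0.98 ± 0.15 (adjusted p = 6.61e-05), Mrpl21 at -0.87 ± 0.19 (adjusted p = 0.000967) and Mrpl9 at -0.85 ± 0.06 (adjusted p = 3.57e-08). Mrps34, a small-subunit protein found only in mitochondria and mutated in human Leigh syndrome, was 14.5, 14.0 and 15.3 CPM in WT and 7.52, 9.34 and 8.42 in KO, a difference of -0.76 ± 0.12 (adjusted p = 0.000103). With trends on transcript length and GC content removed it was -0.15 and not called (adjusted p = 0.204). The libraries used here are those of the age comparisons, so these values are not independent of them.

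The 5 members higher in KO at 12 months differed by less. Mrpl50 was 35.8, 33.0 and 36.3 CPM in WT and 46.7, 45.1 and 43.4 in KO, a difference of 0.36 ± 0.06 (adjusted p = 8.72e-05). Mrps30 followed at 0.23 ± 0.08 (adjusted p = 0.015), Mrps2 at 0.20 ± 0.06 (adjusted p = 0.00598), Mrpl39 at 0.19 ± 0.05 (adjusted p = 0.00525) and Mrpl13 at 0.18 ± 0.06 (adjusted p = 0.0149). Mrps30 did not pass when aged WT replicate 3 (adjusted p = 0.0525) or aged KO replicate 1 (adjusted p = 0.0799) was left out, and neither did Mrpl13 when aged WT replicate 2 (adjusted p = 0.0713) or aged KO replicate 3 (adjusted p = 0.0792) was.

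Of the 3 relatives of bacterial S18, 2 fell with age in KO. Mrps18a, in the large subunit, fell with age in KO by -0.46 ± 0.11 (adjusted p = 0.00287), from 42.5, 43.8 and 47.8 CPM to 28.7, 33.0 and 35.4, and its interaction was -0.49 ± 0.16 (adjusted p = 0.0184). Mrps18c, the small-subunit protein closest in place to the bacterial one, fell by -0.43 ± 0.09 (adjusted p = 0.000572), from 23.9, 21.7 and 22.2 CPM to 16.3, 15.6 and 17.9. Mrps18b, at another place in the small subunit, was 18.3, 17.4 and 18.2 CPM and then 17.3, 18.3 and 19.9, a change of 0.04 ± 0.08 that was not called (adjusted p = 0.692). These are separate fits per gene, and the differences between the relatives were not tested.

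Per length of the longest transcript, the level over the 12 libraries ran from 221 CPM per kb for Mrpl33 and 97.9 for Mrpl20 down to 0.698 for Mrps36 and 0.133 for Mrpl23. The members under the filter were the last 2. For some members the transcript length exceeds the deposited span of the gene, as for Mrps26 at 4278 bases against 1638, so this order is approximate. Mrps36 had 15 to 42 reads per library and Mrpl23 had 0 to 28, the 28 in replicate 2 of 12-month KO and at most 5 in any other. Both have pseudogenes of the same symbol in GENCODE vM21, as does Mrpl48, and how reads that map to several places were counted is not given in the sources used here, so the levels of these 3 are uncertain.

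Genes of other parts of mitochondrial translation also fell with age in KO, where 34.5% of all genes tested were lower and 32.7% higher. Of 7 ribosomal proteins with other symbols, 5 fell and none rose, among them Gadd45gip1 by -0.93 ± 0.17 (adjusted p = 0.000367), Mrp63 by -0.66 ± 0.13 (adjusted p = 0.000511), Aurkaip1 by -0.47 ± 0.09 (adjusted p = 0.000407) and Chchd1 by -0.38 ± 0.07 (adjusted p = 0.00021). Of 28 genes of ribosome assembly and ribosomal RNA modification, 13 fell and 2 rose. Ftsj2, a methyltransferase of the large ribosomal RNA, fell by -0.93 ± 0.14 (adjusted p = 4.69e-05), while Mterfd2, which brings a methyltransferase to the ribosome, rose by 0.74 ± 0.09 (adjusted p = 1.03e-05), from a mean of 22.5 to 37.8 CPM. Of 20 translation factors and partners, 10 fell and none rose, including Slirp, which stabilises mitochondrial messenger RNAs, at -0.62 ± 0.07 (adjusted p = 2.91e-06), and the initiation factor Mtif3 at -0.53 ± 0.08 (adjusted p = 7.81e-05).

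Of 17 mitochondrial aminoacyl-tRNA synthetases, 6 fell and 4 rose with age in KO, or 35.3% and 23.5%, a share lower that is near the 34.5% of all genes tested, with Pars2 at -0.73 ± 0.09 (adjusted p = 1.06e-05) and Iars2 at 0.28 ± 0.05 (adjusted p = 0.000152). In WT 10 of the 17 rose and none fell, against 25.7% and 29.7% of all genes tested, with Fars2 at 0.54 ± 0.08 (adjusted p = 3.58e-05) and Mars2 at 0.35 ± 0.07 (adjusted p = 0.000585), and Mars2 fell in KO by -0.35 ± 0.07 (adjusted p = 0.0004). Of 9 genes of mitochondrial DNA upkeep and transcription, 5 fell and none rose in KO, among them the helicase Peo1 by -0.44 ± 0.07 (adjusted p = 0.000103) and the RNA polymerase Polrmt by -0.62 ± 0.19 (adjusted p = 0.0116). Among 9 regulators of mitochondrial gene expression, 4 fell and 3 rose in KO, or 44.4% and 33.3% against 34.5% and 32.7%, with Esrra at -1.07 ± 0.21 (adjusted p = 0.000507), Nrf1, the factor of the motif shown above, at -0.26 ± 0.06 (adjusted p = 0.00175), and Myc at 1.26 ± 0.12 (adjusted p = 5.49e-07). Pprc1, from the same list, was 19.4, 18.1 and 17.3 CPM in 2-month KO and 26.8, 25.8 and 26.2 in 12-month KO. From 2-month to 12-month KO the mean of Gabpa went from 118 to 119 CPM and that of Gabpb1 from 27.2 to 31.6. In WT the mean of Gabpa went from 122 to 84.8 CPM and that of Gabpb1 from 26.2 to 27.1. Yy1 was 66.9, 79.6 and 71.7 CPM in 2-month KO and 61.9, 63.1 and 54.7 in 12-month KO. For WT it was 83.1, 71.7 and 69.5 CPM and then 78.0, 79.2 and 62.8. Ppargc1a, a coactivator of mitochondrial biogenesis, rose with age in WT by 0.91 ± 0.13 (adjusted p = 3.64e-05) and changed by 0.06 ± 0.13 in KO. The part of these regulators in the changes of the members was not tested.

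Genes of the respiratory chain and of the cytosolic ribosome moved likewise. The list of 79 tested nuclear-encoded respiratory chain subunits includes those of ATP synthase. With age in KO, 62 of the 79 fell and 3 rose, or 78.5% and 3.8%, with a median of -0.43. Of 80 cytosolic ribosomal protein genes 53 fell and none rose, or 66.2% and 0%, with a median of -0.59. Of all genes tested 34.5% fell and 32.7% rose. In WT, 9 and 5 of the respiratory chain subunits fell and rose, or 11.4% and 6.33%. For the cytosolic ribosomal protein genes the counts were 7 and 0, or 8.75% and 0%. Those shares lay below the 29.7% and 25.7% of all genes tested. No difference between these lists and the mitochondrial ribosomal protein genes was tested.

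**Figure D5:**
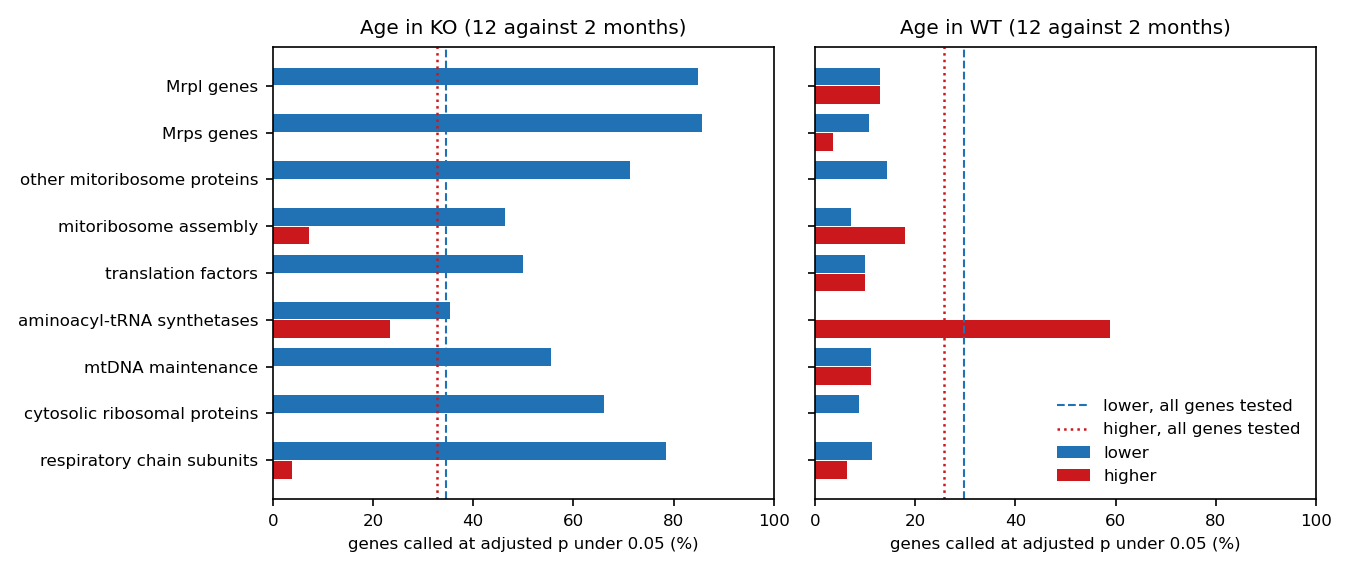
Percent of the tested genes of each list that were called lower (blue) or higher (red) from 2 to 12 months in KO (left) and in WT (right), with the percent of all genes tested as dashed and dotted lines. In KO the lower bars of the 2 member lists reach 84.8% and 85.7% and that of the synthetases, at 35.3%, is near the line of 34.5%, and in WT the lower bars of all 9 lists lie below the line of 29.7%.

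By position the members were spread over 17 chromosomes, with at most 10 on 1 of them, chromosome 11. A start within 1000 bases of that of a gene running the other way was found for 27 of the 76 members, or 35.5%, against 15.6% of all genes tested. Of the 22 tested neighbours that are not members, 13 fell and 2 rose with age in KO, or 59.1% and 9.09% against 34.5% and 32.7% of all genes tested, with a median of -0.27. Mrps11 and Mrpl46, which share the stretch printed above, both fell, by -1.03 ± 0.18 and -0.32 ± 0.08 (adjusted p = 0.00215). Sars2, across the printed stretch from Mrps12, fell by -0.62 ± 0.18 (adjusted p = 0.00784). Tmem63b, next to Mrpl14, changed by -0.15 and was not called (adjusted p = 0.181).

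Motifs were searched on both strands from 250 bases before to 50 bases after the start in the 67 members with a RefSeq promoter. The NRF1 core CGCNTGCG was present in 19, or 28.4%, against 18.6% of the tested genes with a promoter, and the GABP motif CCGGAAGT in 12, or 17.9%, against 8.45%. The YY1 core AAGATGGC was present in 12, or 17.9%, against 4.93%, and the E-box CACGTG in 5, or 7.46%, against 11.7%. Over all 27025 genes with a promoter the shares were 9.22%, 4.31%, 3.19% and 8.09%, and in no member did matches to different motifs overlap. The median log2 fold change with age in KO was -0.33 for members with the NRF1 core and -0.36 for those without, -0.38 and -0.33 for GABP, -0.41 and -0.33 for YY1, and -0.43 and -0.33 for the E-box. Mrps11 and Mrps12 are among the members with the YY1 core, and their matches lie outside the stretches printed above. None of the 4 motifs was found in 29 members, Mrpl41 and Mrps30 among them. A match describes the letters in the window and is not a measure of binding.

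The members have short transcripts, with a median of 1327.5 bases against 3167 for all genes tested, and levels moved with transcript length and GC content in these libraries. Lengths are those of the longest transcript, and for some members they exceed the deposited gene span. The Spearman correlation of a gene's deviation from its mean with transcript length was 0.301, 0.323 and 0.155 in the 3 libraries of 12-month KO and between -0.266 and 0.0375 in the others, over 13176 genes that share library and depth. The correlation with GC content was -0.373, 0.359 and 0.164 in young WT and 0.209, 0.214 and 0.352 in aged WT. In KO it was -0.146, -0.0779 and 0.00683 in young and -0.354, -0.27 and -0.0857 in aged libraries. Over the same genes the change with age in KO correlated with length at 0.275 and with GC content at -0.133, and over the 74 members at 0.299 and -0.331. For the genotype difference at 12 months these values were 0.208 and -0.31 over the same genes, and 0.286 and -0.506 over the members. With those trends removed from each library, 51 members were lower and 6 higher with age in KO, against 39.4% and 32.6% of 13176 genes, and the median was -0.21. At 12 months 33 were lower and 11 higher in KO, against 34.4% and 38.1%, with a median of -0.13.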

How the data were processed

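Total RNA of 12 mammosphere libraries was extracted with the PicoPure kit and prepared with the TruSeq Stranded total RNA kit, per the labels' protocols. Reads were mapped to mm10 and counted per gene with TopHat2 2.1.0, Bowtie2 2.2.4, SAMtools 0.1.18 and HTSeq 0.6.1p1, per the submitters' processing notes; annotation, strand setting and multi-mapping rule: not given in the sources used here. Per the file headers, the authors scaled the deposited CPM signal by TMM in edgeR. Dividing them by the value of 1 read gave whole reads, within 0.1, for 100% of values above 0 in every library. Since the deposited columns carry factors from different runs, TMM was recomputed over the 12 libraries (edgeR 4.0.16), which moved library sizes by a mean of 0.04, -0.03, -0.05 and -0.05 log2 in young WT, aged WT, young KO and aged KO. The planned test for CPM was applied to these values, and the deposited scale was kept as an alternative.

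Genes averaging 0.5 CPM or more entered a limma 3.58.1 (R 4.3.3) model of the 4 groups with a mean-variance trend on log2(CPM + 0.5), which understates changes of low genes, with 8 residual degrees of freedom and Benjamini-Hochberg adjustment within each of 5 comparisons. The main model and the edgeR test were run on simulated counts with known changes, and the other alternatives were not. Those counts had the same dispersion for all genes and no trend on length or GC. Alternatives were other scales, pseudocounts of 0.1 and 1, no filter or one at 2 CPM, the edgeR quasi-likelihood test on the recovered counts, a replicate block, fits of only the groups compared, each library left out, and removal of trends on length and GC.

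The text names the 5 largest rises and 5 largest falls among called members in each comparison, members of a particular role, place or level, members called in opposite directions with age, and up to 4 genes of each pathway list with the smallest adjusted p, of which some are left out. Members, lists and this rule were chosen with earlier results of these data known. Ict1 stands for Mrpl58 in the list of other symbols. Deposited gene starts count from 0. GENCODE vM21 gave transcript lengths and GC content. Sequences are from RefSeq on GRCm38.p6, which held 67 of the 76 members.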

Additional observations from a re-analysis of the deposited data

Results flagged for a closer look

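The age effect differed between the genotypes, by the interaction term of the limma model, for 45 members, with 43 negative and 2 positive values. Among the members named in the report the interaction was -1.04 for Mrps12, -1.03 for Mrpl14, -0.94 for Mrpl21, -0.83 for Mrps11 and -0.79 for Mrpl34, all lower with age in KO and not called in WT. It was 0.28 for Mrpl50 and 0.26 for Mrps2, both lower with age in WT and not called in KO. The cell type marker sums given in the report also moved differently with age in the 2 genotypes, as all 10 luminal markers rose in WT against 3 of 10 in KO, and their part in these values was not tested.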

How the results depend on the processing

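The fall with age in KO was called for 51 to 63 members in every alternative run on all libraries and for 53 to 61 with 1 library left out, and no named value changed sign. Of 595 values of 35 named results under the alternatives, 583 stayed on their side of the threshold and 12 lost the call, namely those given in the report and Mrps2 for the interaction without replicate 2 of 12-month WT (0.20, adjusted p = 0.0523). On the authors' own scale 19 members were lower with age in WT, 1 higher with age in KO, 1 higher in KO at 2 months, and 4 had a positive interaction. One member was higher with age in KO on the median-of-ratios scale, and 1 with the replicate block. Fitting only the groups compared left 1 member higher at 2 months, Mrpl47, since Mrpl35 lost its call (adjusted p = 0.0606). With trends on length and GC removed, 16 were lower with age in WT, 6 higher with age in KO, 7 higher in KO at 2 months and 11 higher at 12 months. The cause of these moves was not tested.

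With 1 library left out, members lower with age in WT numbered 5 to 12 and higher 5 to 9, higher with age in KO 0 to 1, higher at 2 months 1 to 3, lower at 12 months 34 to 49 and higher 4 to 5, negative in the interaction 34 to 49 and positive 1 to 3. A fit with 2 libraries in a group assumes that these vary like the others.

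The labels give only a replicate number, and libraries of the same number did not deviate together in every pair. Their correlations were 0.223, -0.0959 and 0.0497 for age in WT, and 0.096, 0.08 and 0.334 for age in KO. With the replicate block 9 members were higher and 12 lower with age in WT, 1 and 63 with age in KO, 3 and 1 at 2 months, 5 and 46 at 12 months, and 2 and 47 in the interaction. The edgeR quasi-likelihood test on recovered counts called 62 members lower and 0 higher with age in KO, and 16, 3, 46 and 44 members in the other 4 comparisons.

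At least 15 reads per library stand behind every member but Mrpl23. Counting error is small for the tested members, and 3 libraries per group limit the precision.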
